A study of Mus musculus with 24 samples.

Results

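The 9 genes described here code for the retinoblastoma pocket proteins (Rb1, Rbl1 and Rbl2) and for 6 transcription factors of the E2F family (E2f1, E2f2, E2f3, E2f4, E2f7 and E2f8). They were taken by symbol from a table of 56748 mouse genes, of which 21970 are listed as protein coding. No cutoff on a measured value was applied, but the choice was made with earlier results of these data known. All 9 were found in the table and all 9 passed the filter on low counts in every comparison. The members are Rb1 (ENSMUSG00000022105, chromosome 14, minus strand), Rbl1 (ENSMUSG00000027641, chromosome 2, minus strand), Rbl2 (ENSMUSG00000031666, chromosome 8, plus strand), E2f1 (ENSMUSG00000027490, chromosome 2, minus strand), E2f2 (ENSMUSG00000018983, chromosome 4, plus strand), E2f3 (ENSMUSG00000016477, chromosome 13, minus strand), E2f4 (ENSMUSG00000014859, chromosome 8, plus strand), E2f7 (ENSMUSG00000020185, chromosome 10, plus strand) and E2f8 (ENSMUSG00000046179, chromosome 7, minus strand).

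Poly-A RNA sequencing was performed on cultured liver endothelial cells of C57BL/6 mice, which the methods give as 3 months old and female, against the Y-linked reads of 16 libraries described below. The cells were isolated with magnetic beads against Cd31 or, for the sinusoidal type, Cd146. One week after lentiviral transduction, each population was represented by 4 groups of 3 libraries, 24 libraries in all. Cells received a non-coding hairpin (nc shRNA), a hairpin against P16 (P16 shRNA), the empty overexpression vector or the same vector with P16 fused to green fluorescent protein (P16). Every group therefore carried a lentivirus, and the P16 groups were each compared with the control for their own vector. P16 is a product of the gene Cdkn2a, whose reads also include those of its other product, Arf, and of the construct's own insert. The sources used here do not say whether the 3 libraries of a group came from separate animals. Outside the groups of silencing in Cd31+ cells, each group held libraries of both sex-linked kinds described below, and so of different animals. How many animals each group held is not known, so p-values measure the spread between these libraries, which may in part be technical.

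Pocket proteins bind E2F factors at the promoters of cell cycle genes and hold transcription down. P16 inhibits Cdk4 and Cdk6, the kinases that phosphorylate the pocket proteins after mitogen signals. A phosphorylated pocket protein lets go of its E2F partner, which allows the genes of DNA synthesis to be transcribed. E2f1, E2f2 and E2f3 are known as activators. E2f4 mostly represses together with Rbl1 or Rbl2, the latter also as part of the DREAM complex of resting cells, which it forms with the MuvB core. E2f7 and E2f8 are atypical members that repress without a pocket protein, and both are E2F targets themselves, as is Rbl1.

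The libraries held between 15409767 and 26470392 counted reads. Cdkn2a reads followed the labels. In Cd31+ cells, the mean was 56.7 ± 19.9 CPM (counts scaled to library size) with nc shRNA, 6.67 ± 2.23 with P16 shRNA, 56.7 ± 23.7 with the empty vector and 229.9 ± 96.6 with P16 (SD, n = 3 each). The corresponding means in Cd146+ cells were 138.8 ± 52.1, 14.9 ± 9.49, 91.9 ± 19.4 and 497.9 ± 308.2 CPM (SD, n = 3 each). Although the methods name female mice, 8 libraries held at least 6698 Xist reads and at most 4 reads of the summed Y-linked genes, while the other 16 held at least 2353 Y-linked and at most 4 Xist reads. In both populations, libraries numbered 1, 2 or 3 in the sample labels were of the second kind and those numbered 4, 5 or 6 of the first. Libraries of both kinds occurred in every comparison except silencing in Cd31+ cells, in which all 6 libraries were of the second kind. A fit with a term for the 2 kinds was run for every such comparison. Of the members, it changed the calls of Rbl1 and E2f8 with P16 in Cd146+ cells and no other call. The 12 endothelial markers summed to between 279.4 and 2143 CPM per library. Pecam1, the gene of Cd31, lay between 4.05 and 280.6 CPM and Cdh5, the endothelial cadherin, between 3.70 and 366.3 CPM, while the sinusoidal genes Stab2 and Clec4g were at or near 0, Stab2 with at most 0.962 CPM and Clec4g at 0 in all libraries of 3 groups. The 10 mesenchymal markers summed to between 6624 and 51120 CPM, with Col1a1 alone, a collagen gene, between 460.2 and 19400 CPM, which goes against a pure endothelial label. Not every gene of that list was present throughout. Lrat was at 0 in all libraries of Cd31+ cells with P16 shRNA, the empty vector or P16. It was also at 0 in those of Cd146+ cells with nc shRNA or the empty vector. The 10 macrophage markers summed to between 20.3 and 382.4 CPM, the 8 hepatocyte markers to between 49.9 and 396.7 CPM, the 5 cholangiocyte markers to between 38.4 and 981.9 CPM and the 6 lymphoid markers to at most 0.590 CPM. Of the 8 hepatocyte markers, 2 or 3 were at 0 in all libraries of each group, and only 1 passed the filter on low counts. Clec4f and Marco of the macrophage list and Epcam of the cholangiocyte list were at 0 in all libraries of some groups. In bulk cultures such as these, fewer cells of a type and less RNA per cell cannot be told apart.

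Per transcript length, E2f4 and E2f1 were the most abundant members, and the other members followed at a distance. Over the 24 libraries, the median deposited level, scaled by gene length and library size (FPKM), was 18.1 for E2f4, 12.5 for E2f1 and 7.45 for E2f3. The pocket genes had medians of 4.60 FPKM (Rb1), 4.26 FPKM (Rbl2) and 3.03 FPKM (Rbl1). The atypical factors were lower, with 1.29 FPKM for E2f7 and 1.04 FPKM for E2f8, and E2f2 was lowest with 0.573 FPKM. The fewest reads of any member in a library were 15 for E2f2, 34 for E2f8 and 50 for E2f7, against 148 or more for each of the other 6 genes, so counting error weighs most on E2f2.

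The members also differed in how far their levels varied between libraries. The ratio of the highest to the lowest CPM over the 24 libraries was 9.46 for E2f2, 6.51 for E2f7, 5.98 for Rbl2, 5.15 for E2f8 and 3.74 for Rbl1. It was 2.35 for Rb1, 1.77 for E2f4, 1.68 for E2f1 and 1.49 for E2f3. When the 8 groups were ordered by their mean, Rbl2 was the only member with 2 gaps in that order, that is, neighbouring groups whose libraries did not overlap. Both gaps enclosed a P16 shRNA group: Cd31+ cells with P16 shRNA lay below all 6 groups without it, and Cd146+ cells with P16 shRNA below these again. E2f2, E2f3 and E2f8 had 1 gap each among the 7 neighbouring pairs, and the other 5 members had none, so that for these the order of the groups is not resolved by 3 libraries each. For E2f3 the gap lay between the highest group, Cd31+ cells with nc shRNA, and the next in the order, Cd31+ cells with P16 shRNA. The share of all genes with such gaps was not counted, so the gaps only describe the members.

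**Figure D1:**
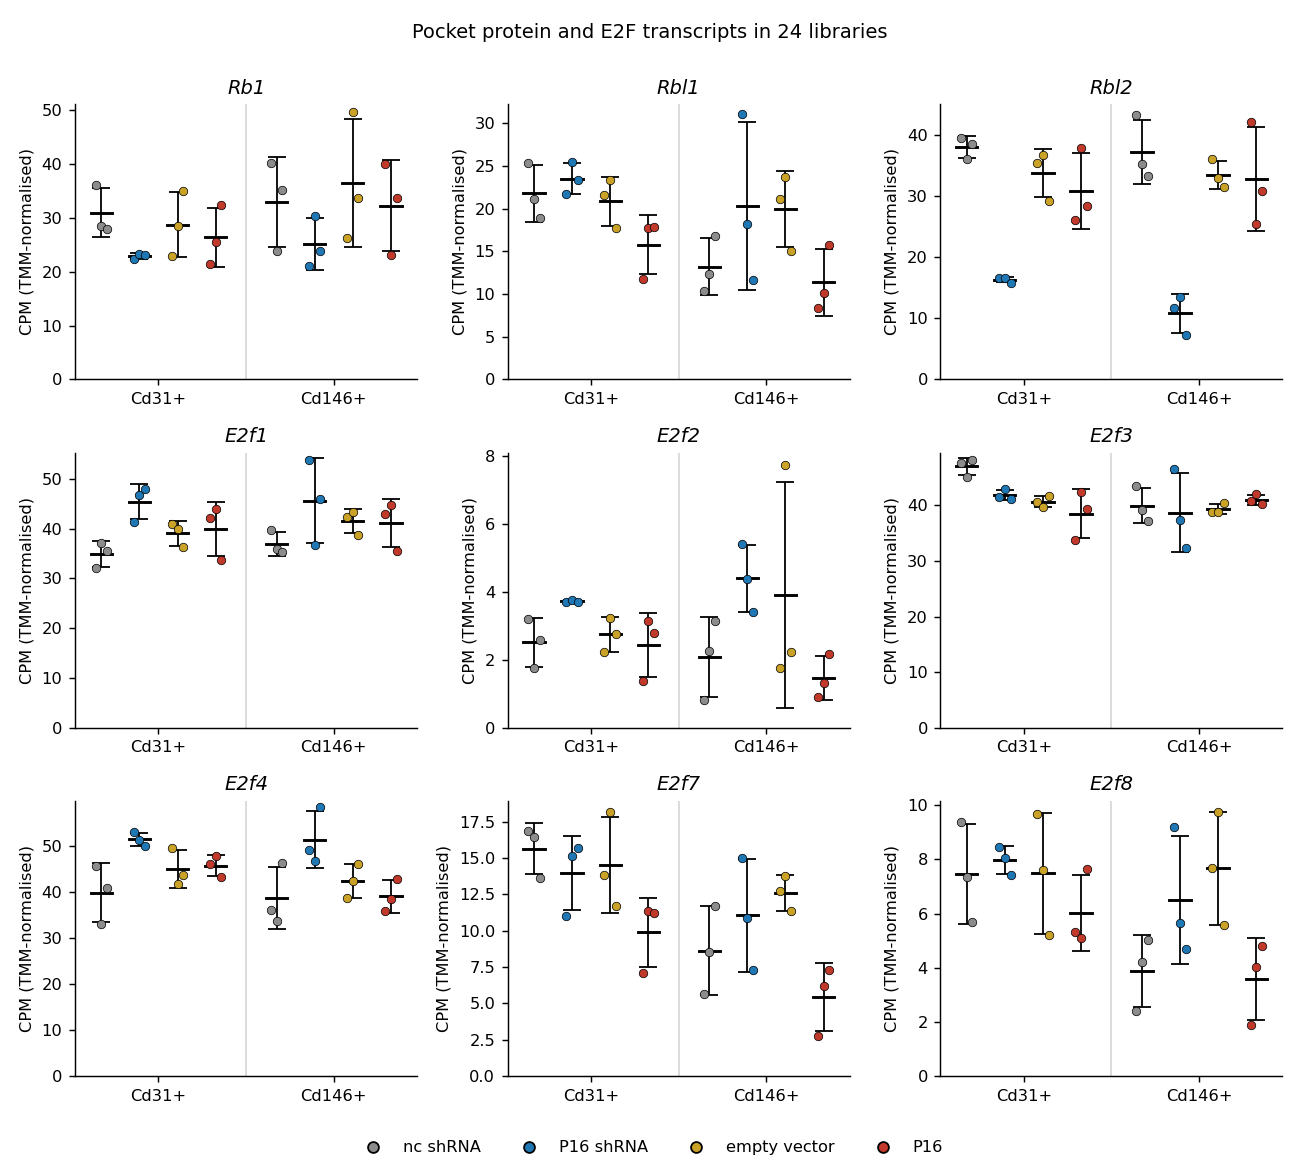
Normalized level (CPM, vertical axes) of the 9 members in the 24 libraries, by population and construct. Each point is a library and the bars give the mean and SD of 3. The Rbl2 points with P16 shRNA lie between 7.23 and 16.6 CPM, below all 18 other libraries, which start at 25.5 CPM.

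Silencing of P16 came with a large loss of Rbl2 transcript in both populations, while the transcripts of Rb1, E2f1 and E2f4 moved by less. In Cd31+ cells, 4 of the 9 members passed an unadjusted p under 0.05 in edgeR, namely Rbl2 and Rb1 as lower and E2f1 and E2f4 as higher, where 19.8% of 14358 genes tested passed (9.51% as higher and 10.3% as lower). After adjustment over all genes tested, Rbl2 alone of the members stayed under 0.05, with 1.30% of all genes. The libraries of the groups did not overlap for 6 members, 3 above and 3 below the control, against 27.4% of all genes. In Cd146+ cells, Rbl2 alone of the members passed the unadjusted threshold, where 11.6% of 15124 genes passed (5.44% as higher and 6.18% as lower), and 0% of genes, Rbl2 included, passed after adjustment, while DESeq2 called 333 genes adjusted, Rbl2 among them. The groups did not overlap for 3 members there, E2f2 and E2f4 above and Rbl2 below, against 20.5% of all genes. In Cd31+ cells, the members had a median log2 fold change of 0.10 (all genes tested, 0.00), and in Cd146+ cells of 0.36 (all genes tested, 0.03).

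Rbl2 codes for p130, the pocket protein that prevails in resting cells. In Cd31+ cells, its level was 39.6, 36.1 and 38.6 CPM in the nc shRNA libraries and 16.6, 16.6 and 15.8 CPM in the P16 shRNA libraries. In Cd146+ cells, it was 43.3, 35.4 and 33.4 CPM with nc shRNA and 11.8, 13.4 and 7.23 CPM with P16 shRNA. All 6 silenced libraries were thus lower than every control library. The log2 fold change was -1.22 in Cd31+ cells (SE 0.10, adjusted p = 0.0115 from edgeR), a 2.32-fold lower level. In Cd146+ cells, it was -1.78 (SE 0.27, unadjusted p = 3.57e-04 and adjusted p = 0.308 from edgeR), a 3.45-fold lower level. With the replicate number as a block over the 12 libraries of a population, the log2 fold change was -1.22 in Cd31+ cells (adjusted p = 9.97e-05 from edgeR) and -1.41 in Cd146+ cells (adjusted p = 0.00192 from edgeR). In Cd146+ cells, the block over the 2 groups alone left the adjusted p at 0.0994 (edgeR), while the 12 libraries without a block gave 0.0463 (edgeR), so that the adjusted call there changed with the libraries and filter of the fit. Values with the block below are over 12 libraries unless 2 groups are named. The term for the sex-linked transcripts gave -1.72 in Cd146+ cells (unadjusted p = 6.165e-04 from edgeR), and DESeq2 an adjusted p of 3.05e-06. Leaving out 1 library at a time kept the log2 fold change between -1.27 and -1.20 in Cd31+ and between -1.97 and -1.59 in Cd146+ cells. The adjusted call in Cd31+ cells was lost without nc shRNA 3 or without any 1 of the 3 P16 shRNA libraries, with an adjusted p from 0.0622 to 0.0997 (edgeR).

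The 3′ UTR of Rbl2 was examined for a short word because it was the member with the largest change under the hairpin. Among the longest 3′ UTRs of the 9 members in GENCODE M21, the word TACCGCT occurred only in that of Rbl2, once in 1398 bases. The site, 30 bases on the plus strand of GRCm38 at chr8:91123773-91123802 with the shared 8-base run in capitals, is shown because the same run also occurs in both protein-coding transcripts of Cdkn2a, the gene the hairpin is directed against.
Rbl2 3′ UTR site: gaaaaccttaGTACCGCTactgtaatttta
The word was chosen after the values of these data had been seen, from those with the core CCGCT. That core also occurred in the 3′ UTRs of Rbl1, E2f2 and E2f7, once each, and 2 times in that of E2f3. The values of other genes with the word are not given, since the word was picked on these data. The hairpin's sequence is not given in the sources used here, and the part of this word in the Rbl2 result was not tested.

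Rbl2 overlaps the gene Aktip on the opposite strand, and whether reads were counted by strand is not stated for these files. Aktip differed by -0.37 on the log2 scale in silenced Cd31+ cells (SE 0.10, unadjusted p = 0.00897 from edgeR) and by -0.37 in silenced Cd146+ cells (unadjusted p = 0.219 from edgeR). Both differences were smaller than those of Rbl2.

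Rb1 codes for the retinoblastoma protein itself. Its level in Cd31+ cells was 36.2, 28.6 and 28.0 CPM with nc shRNA and 22.3, 23.4 and 23.2 CPM with P16 shRNA. All 3 silenced libraries were below the 3 controls, by less than for Rbl2, with a log2 fold change of -0.42 (SE 0.13, unadjusted p = 0.0134, adjusted p = 0.146 from edgeR). The replicate block brought the adjusted p to 0.0469 at -0.43 on the log2 scale. In Cd146+ cells, the groups overlapped: 40.2, 23.8 and 35.1 CPM with nc shRNA and 21.2, 30.4 and 23.9 CPM with P16 shRNA (log2 fold change -0.39, SE 0.25, unadjusted p = 0.172 from edgeR). Rcbtb2 and Lpar6, on the opposite strand, overlap Rb1, so part of its reads may be theirs if strand was not used in counting. In silenced Cd31+ cells, their log2 fold changes were -0.06 and -0.17 (unadjusted p = 0.5735 and 0.545 from edgeR). In silenced Cd146+ cells, both were -0.21 (unadjusted p = 0.430 and 0.360 from edgeR). Their part in the Rb1 values was not tested.

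Rbl1 codes for p107, the pocket protein of cycling cells. In Cd31+ cells, it was measured at 25.4, 21.2 and 18.9 CPM with nc shRNA and at 21.8, 25.5 and 23.4 CPM with P16 shRNA, 2 overlapping groups (log2 fold change 0.12, SE 0.14, unadjusted p = 0.438 from edgeR). In Cd146+ cells, the values were 10.4, 12.3 and 16.9 CPM with nc shRNA and 31.1, 18.2 and 11.7 CPM with P16 shRNA. The hairpin libraries covered nearly the whole range of this gene, and the log2 fold change of 0.62 had an SE of 0.38 (unadjusted p = 0.1503 from edgeR). It was 0.74 with the replicate block (unadjusted p = 0.0475 from edgeR) and 0.86 without P16 shRNA 6 (unadjusted p = 0.0391 from edgeR).

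With Rbl2 lower and Rbl1 not, the make-up of the pocket transcripts differed under the hairpin. The summed level of the 3 pocket genes was 13.6 ± 1.47 FPKM with nc shRNA and 9.70 ± 0.411 FPKM with P16 shRNA in Cd31+ cells, and 12.5 ± 1.82 and 8.92 ± 1.74 FPKM in Cd146+ cells (SD, n = 3 each). In the 18 libraries without P16 shRNA, Rbl2 held between 26.3% and 43.8% of that sum. In the P16 shRNA libraries, it held between 21.2% and 23.0% in Cd31+ cells and between 13.9% and 18.0% in Cd146+ cells. Rbl1 held 24.4% to 27.4% of the sum in Cd31+ cells with nc shRNA and 38.1% to 41.2% with P16 shRNA. In Cd146+ cells, the ranges were 12.2% to 21.5% and 28.3% to 50.5%. The share of Rb1 overlapped between the groups, with 36.1% to 38.8% against 37.6% to 39.2% in Cd31+ cells. These are shares of transcripts per length and follow from the levels above.

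**Figure D2:**
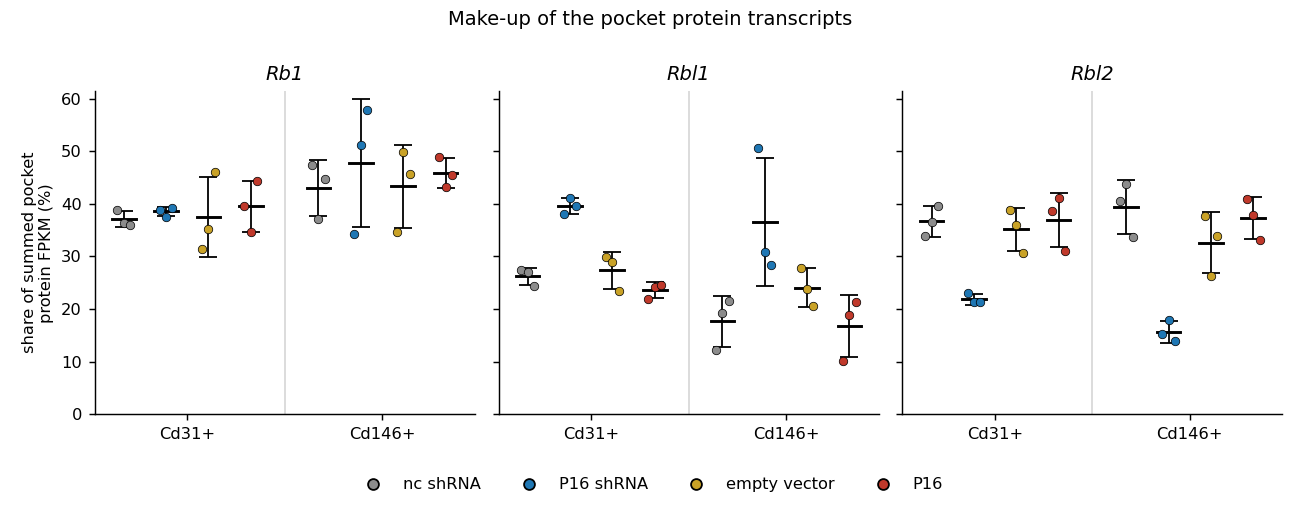
Share (percent, vertical axis) of Rb1, Rbl1 and Rbl2 in their summed FPKM by group, with a point for each library and bars for the mean and SD of 3. Rbl2 lies at 13.9% to 23.0% in the 2 P16 shRNA groups and at 26.3% or more in every other library.

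Of the activators, E2f1 alone passed the unadjusted threshold under the hairpin, in Cd31+ cells. Its level was 32.2, 37.2 and 35.5 CPM with nc shRNA and 41.4, 46.9 and 48.1 CPM with P16 shRNA, without overlap (log2 fold change 0.39, SE 0.11, unadjusted p = 0.00944, adjusted p = 0.126 from edgeR). With the block, E2f1 had an adjusted p of 0.01925 at 0.38. In Cd146+ cells, E2f1 was at 39.6, 35.8 and 35.3 CPM with nc shRNA and at 53.9, 36.8 and 46.1 CPM with P16 shRNA. One silenced library lay within the control range, and the log2 fold change was 0.31 (SE 0.19, unadjusted p = 0.148 from edgeR), or 0.32 with the block (unadjusted p = 0.0333 from edgeR).

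E2f2, the rarest member, was higher in every P16 shRNA library than in every nc shRNA library of its population, without reaching the threshold. In Cd31+ cells, it was at 3.19, 1.77 and 2.58 CPM with nc shRNA and at 3.70, 3.77 and 3.71 CPM with P16 shRNA (log2 fold change 0.58, SE 0.28, unadjusted p = 0.0788 from edgeR). In Cd146+ cells, it was at 0.818, 2.25 and 3.15 CPM with nc shRNA and at 5.399, 4.39 and 3.42 CPM with P16 shRNA (log2 fold change 1.08, SE 0.53, unadjusted p = 0.0793 from edgeR). The block gave 0.96 in Cd146+ cells (unadjusted p = 0.0127 from edgeR). In Cd31+ cells, the block gave 0.59 (unadjusted p = 0.0689 from edgeR), or 0.61 over the 2 groups (unadjusted p = 0.0397 from edgeR). E2f2 also passed without nc shRNA 1 in Cd31+ cells (0.77, unadjusted p = 0.0340 from edgeR) and without nc shRNA 5 in Cd146+ cells (1.51, unadjusted p = 0.0364 from edgeR). E2f3 went the other way in Cd31+ cells, with 47.7, 45.2 and 48.1 CPM in the controls and 41.5, 42.9 and 41.1 CPM in the silenced libraries. These groups did not overlap, yet the log2 fold change was small and not called (-0.16, SE 0.09, unadjusted p = 0.104 from edgeR). In Cd146+ cells, E2f3 ranged from 37.1 to 43.4 CPM with nc shRNA and from 32.3 to 46.5 CPM with P16 shRNA (log2 fold change -0.04).

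E2f4 was the member with the highest level per length and the only repressor of the classical type in the group. In Cd31+ cells, it was at 45.7, 33.0 and 40.9 CPM with nc shRNA and at 53.1, 51.3 and 50.1 CPM with P16 shRNA, without overlap (log2 fold change 0.38, SE 0.13, unadjusted p = 0.0243, adjusted p = 0.184 from edgeR). With the block, the adjusted p was 0.0272 at 0.38. The unadjusted call was lost without nc shRNA 2 (unadjusted p = 0.0742 from edgeR), P16 shRNA 1 (0.0751) or P16 shRNA 2 (0.05505). In Cd146+ cells, the values were 36.2, 33.7 and 46.4 CPM with nc shRNA and 49.1, 46.8 and 58.5 CPM with P16 shRNA, again without overlap (log2 fold change 0.41, SE 0.19, unadjusted p = 0.0714 from edgeR, with 0.0345 without nc shRNA 5 and 0.03025 with 12 libraries and no block). The 6 E2F genes together summed to 39.0 ± 2.44 FPKM with nc shRNA and 46.0 ± 0.927 FPKM with P16 shRNA in Cd31+ cells, and to 36.6 ± 3.17 and 45.5 ± 3.98 FPKM in Cd146+ cells (SD, n = 3 each). E2f4 held between 36.3% and 51.0% of that sum in any library and E2f1 between 24.3% and 37.3%.

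The atypical factors E2f7 and E2f8 were not called under the hairpin. E2f7 was at 16.9, 16.5 and 13.7 CPM with nc shRNA and at 11.04, 15.1 and 15.7 CPM with P16 shRNA in Cd31+ cells (log2 fold change -0.16, unadjusted p = 0.411 from edgeR). E2f8 was at 9.38, 7.35 and 5.67 CPM and at 8.47, 8.05 and 7.42 CPM, respectively (log2 fold change 0.10, unadjusted p = 0.649 from edgeR). In Cd146+ cells, E2f7 ranged from 5.67 to 11.7 CPM with nc shRNA and from 7.28 to 15.02 CPM with P16 shRNA (log2 fold change 0.36, SE 0.37). E2f8 ranged from 2.40 to 5.02 CPM and from 4.69 to 9.19 CPM (log2 fold change 0.75, SE 0.41, unadjusted p = 0.110 from edgeR, and 0.63 with unadjusted p = 0.0394 with the block). Of the members that gained an unadjusted call from the block in silenced Cd146+ cells, E2f2 alone also passed with the block over the 2 groups (unadjusted p = 0.0474 from edgeR), with an unadjusted p of 0.0874 for Rbl1, 0.112 for E2f1 and 0.0990 for E2f8. The intervals of these Cd146+ differences are wide, since the 3 hairpin libraries differed among themselves.

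Overexpression of P16 left Rbl2, Rb1 and the abundant E2F members without a call, and the members that passed the threshold were Rbl1, E2f7 and E2f8, all lower, in Cd146+ cells. There, 3 of 9 members passed the unadjusted p, where 3.53% of 14860 genes did (1.55% as higher and 1.99% as lower), and 0 of 9 members and 0% of all genes passed after adjustment (DESeq2, 0 members and 1 gene). The groups did not overlap for E2f7 and E2f8, against 8.53% of all genes. In Cd31+ cells, 0 of 9 members passed in edgeR or DESeq2, where 3.73% of 14565 genes did in edgeR (1.45% as higher and 2.29% as lower), and again 0% of all genes after adjustment (DESeq2, 4 genes). E2f7 was the 1 member there without overlap, below its control, against 10.7% of all genes. The members' median log2 fold change was -0.12 in Cd31+ cells (all genes, 0.01) and -0.17 in Cd146+ cells (all genes, 0.00).

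Rbl1, E2f7 and E2f8 are known E2F targets, and their promoters were therefore searched for E2F words. The RefSeq table for GRCm38.p6 held windows from 250 bases before to 50 bases after the transcription start for 7 of the 9 members, all but Rb1 and E2f4. The E2F words searched were TTCCCGC and its variants with other letters in the middle, which read TTGGCGC in the first case, TTCGCGC in the second and TTGCCGC in the third. On either strand, 1 or more of them occurred in 5 of the 7 members, and in 9.57% of all 32851 promoters of the table. E2f1 and Rbl2 had none in these windows. The E2f1 window appears to lie within the coding part of the gene, so the promoter at its main start was not searched. For E2f2, the bases downstream of the start matched no GENCODE transcript in either window. TTTGAA or TTCGAA, words of the cell cycle homology region, occurred in 4 members and 19.2% of promoters, and CCAAT in 37.4% of promoters. A member counts if any of its windows held a word, and E2f2 and E2f3 had more than 1 window. The percentages count each promoter singly. The 250 bases before the start are shown for the 3 genes called under P16 overexpression, 5′ to 3′ on the strand of the gene, with E2F words in capitals.
Rbl1, chr2:157204535-157204784, minus strand: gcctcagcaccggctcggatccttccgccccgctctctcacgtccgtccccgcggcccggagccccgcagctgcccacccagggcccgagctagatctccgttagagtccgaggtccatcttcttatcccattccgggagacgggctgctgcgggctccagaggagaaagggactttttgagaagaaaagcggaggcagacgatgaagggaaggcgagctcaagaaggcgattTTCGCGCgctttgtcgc
E2f7, chr10:110745189-110745438, plus strand: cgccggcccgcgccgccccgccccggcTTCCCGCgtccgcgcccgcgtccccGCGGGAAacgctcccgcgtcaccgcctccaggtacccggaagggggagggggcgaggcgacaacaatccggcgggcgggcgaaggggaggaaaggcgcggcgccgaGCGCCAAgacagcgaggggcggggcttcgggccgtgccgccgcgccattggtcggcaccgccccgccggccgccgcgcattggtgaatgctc
E2f8, chr7:48881597-48881846, minus strand: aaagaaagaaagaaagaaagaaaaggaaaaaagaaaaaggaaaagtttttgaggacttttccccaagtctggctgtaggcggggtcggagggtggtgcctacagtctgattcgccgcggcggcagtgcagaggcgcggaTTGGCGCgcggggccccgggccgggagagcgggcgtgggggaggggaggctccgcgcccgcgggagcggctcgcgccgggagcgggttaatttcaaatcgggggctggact
Rbl1 held 1 word, which began 17 bases before the start. E2f7 held 3, which began 223, 198 and 92 bases before the start, the latter 2 on the reverse strand. E2f8 held 1, which began 111 bases before the start and overlapped a CCAAT word on the other strand. A match describes the letters only, not a bound site.

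E2f7 was the member with the largest called change under P16. In Cd146+ cells, it was at 12.7, 13.8 and 11.4 CPM with the empty vector and at 2.79, 6.21 and 7.33 CPM with P16. Every P16 library was lower than every control, and the log2 fold change was -1.21 (SE 0.38, unadjusted p = 0.0170, adjusted p = 0.986 from edgeR), a 2.32-fold lower level. It was -0.77 with the replicate block (unadjusted p = 0.0271 from edgeR) and -1.13 with the term for sex-linked transcripts (unadjusted p = 0.0286 from edgeR), and it stayed under the unadjusted threshold without any 1 library. In Cd31+ cells, E2f7 was at 13.8, 18.1 and 11.7 CPM with the empty vector and at 7.13, 11.3 and 11.2 CPM with P16. The groups did not overlap, though by a small margin, and the log2 fold change was -0.55 (SE 0.26, unadjusted p = 0.0725 from edgeR). E2f7 passed there with 12 libraries and no block (-0.54, unadjusted p = 0.0359 from edgeR) and with the block (-0.59, unadjusted p = 0.0275, or -0.69, unadjusted p = 0.00755 over the 2 groups, from edgeR), and not with the term for sex-linked transcripts (-0.54, unadjusted p = 0.0878 from edgeR).

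E2f8, which often acts as a dimer with E2f7, was at 7.67, 9.76 and 5.59 CPM with the empty vector and at 1.90, 4.04 and 4.82 CPM with P16 in Cd146+ cells. The groups did not overlap, and the log2 fold change was -1.09 (SE 0.42, unadjusted p = 0.0403, adjusted p = 0.986 from edgeR), a 2.13-fold lower level. In Cd31+ cells, the groups overlapped, with 9.66, 7.62 and 5.20 CPM in the controls and 5.33, 5.09 and 7.64 CPM with P16 (log2 fold change -0.30, SE 0.30, unadjusted p = 0.345 from edgeR).

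Rbl1 was at 21.1, 23.7 and 15.1 CPM with the empty vector and at 8.31, 10.1 and 15.8 CPM with P16 in Cd146+ cells. P16 library 5 lay within the control range and the other libraries below it (log2 fold change -0.81, SE 0.31, unadjusted p = 0.0388, adjusted p = 0.986 from edgeR). In Cd31+ cells, it was at 21.6, 23.3 and 17.7 CPM and at 11.8, 17.8 and 17.9 CPM, which overlapped narrowly (log2 fold change -0.39, SE 0.21, unadjusted p = 0.107 from edgeR). The block gave -0.36 (unadjusted p = 0.0856 from edgeR), or -0.48 over the 2 groups (unadjusted p = 0.0476 from edgeR).

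The Cd146+ calls of Rbl1 and E2f8 were less firm than that of E2f7. With the replicate block, the log2 fold changes were -0.20 for Rbl1 (unadjusted p = 0.627 from edgeR) and -0.41 for E2f8 (unadjusted p = 0.261 from edgeR). With the term for sex-linked transcripts, they were -0.74 (unadjusted p = 0.0553) and -1.01 (unadjusted p = 0.0648, both from edgeR). Both calls were also lost without empty vector 2, empty vector 4, P16 1 or P16 3, with an unadjusted p from 0.0732 to 0.122 for E2f8 and from 0.0891 to 0.1145 for Rbl1 (edgeR). Only library number 5 occurred in both Cd146+ groups, so the block draws on the other groups of the population.

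The remaining members gave no call under P16 in either population. E2f2 in Cd146+ cells had the largest difference of them, at 1.77, 7.74 and 2.23 CPM with the empty vector and 0.892, 1.31 and 2.17 CPM with P16. Empty vector 4 was the highest of all 24 libraries for this gene. The log2 fold change was -1.41 (SE 0.70, unadjusted p = 0.0890 from edgeR), and it was -0.15 with the replicate block (unadjusted p = 0.739 from edgeR). Without empty vector 4 it was -0.45 (unadjusted p = 0.443 from edgeR), and without empty vector 2 it was -1.77 and passed (unadjusted p = 0.0488 from edgeR). Rbl2 was at 36.0, 33.0 and 31.5 CPM with the empty vector and at 42.1, 25.5 and 30.8 CPM with P16 in Cd146+ cells (log2 fold change -0.03, SE 0.22). In Cd31+ cells, it was at 35.4, 36.7 and 29.3 CPM and at 26.2, 38.0 and 28.5 CPM (log2 fold change -0.12, SE 0.18). The log2 fold changes of Rb1, E2f1, E2f3 and E2f4 lay between -0.17 and 0.06 in both populations, with SE between 0.11 and 0.31.

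**Figure D3:**
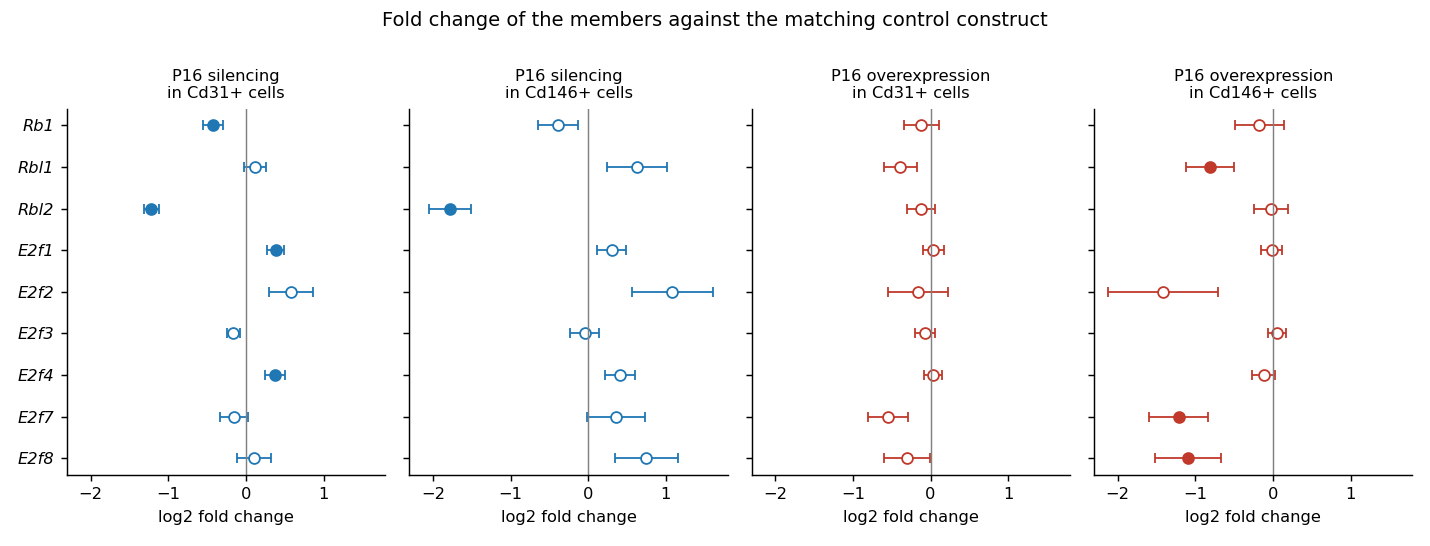
Log2 fold change (horizontal axis, with SE) of each member in the 4 comparisons of a P16 construct with its vector control. Filled points passed an unadjusted p under 0.05 in edgeR. Rbl2 lies at -1.22 and -1.78 under the hairpin and at -0.12 and -0.03 with P16. E2f7 lies at -0.55 and -1.21 with P16, and E2f2, which was not called, lies lower in Cd146+ cells, at -1.41.

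Whether the populations responded differently was tested as a difference of the fold changes over all 24 libraries. For silencing, 0 of 9 members passed the unadjusted threshold in edgeR or DESeq2, where 1.20% of genes passed in edgeR, with 0% after adjustment. For overexpression, 0 of 9 members passed in either tool, where 3.82% of genes did in edgeR, with 0% after adjustment (DESeq2, 3 genes). The difference of the Rbl2 fold changes under the hairpin was -0.56 on the log2 scale (SE 0.29, unadjusted p = 0.06455 from edgeR), and without Cd146+ P16 shRNA 5 it was -0.74 (unadjusted p = 0.0170 from edgeR). Those of E2f7 and E2f8 with P16 were -0.66 (SE 0.46, unadjusted p = 0.1725) and -0.78 (SE 0.50, unadjusted p = 0.139, both from edgeR). That of E2f2 with P16 was -1.25 (SE 0.74, unadjusted p = 0.107 from edgeR), with an unadjusted p of 0.03985 without Cd146+ empty vector 2 and 0.0481 without Cd146+ P16 5, and it was -0.29 without Cd146+ empty vector 4 (unadjusted p = 0.659 from edgeR). A call in 1 population and not in the other is therefore not shown to be a difference between them.

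Between the populations under control constructs, 1 member passed the unadjusted threshold, where 17.9% of genes did, and 0% after adjustment (DESeq2, 631 genes). E2f7 was lower in Cd146+ than in Cd31+ cells, with 8.64 ± 3.04 against 15.7 ± 1.75 CPM with nc shRNA and 12.6 ± 1.22 against 14.5 ± 3.29 CPM with the empty vector (SD, n = 3 each). The log2 difference was -0.51 (SE 0.20, unadjusted p = 0.0266 from edgeR). It was not called with the empty vector alone (-0.19, unadjusted p = 0.369 from edgeR), without Cd31+ empty vector 2 (unadjusted p = 0.0523 from edgeR) or without Cd146+ nc shRNA 3 (unadjusted p = 0.0588 from edgeR). With nc shRNA alone, E2f7 (-0.85), Rbl1 (-0.72) and E2f8 (-0.93) were all called lower (unadjusted p from 0.01875 to 0.0361, adjusted p from 0.591 to 0.597, edgeR). The share of all genes called in that fit is not given here, so these calls only describe the members. Rbl1 differed by -0.37 (SE 0.18, unadjusted p = 0.0626 from edgeR, and called without Cd31+ empty vector 5 or Cd146+ empty vector 4) and E2f8 by -0.43 (SE 0.28, unadjusted p = 0.148 from edgeR). For Rbl2, the log2 difference between the populations was 0.00 (SE 0.08). Cdkn2a, which lies upstream, was 2.01-fold higher in Cd146+ cells (unadjusted p = 0.00372 from edgeR).

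The genes that the members control or answer to were read as lists. The list of 42 G1/S targets of E2F holds genes of replication licensing, nucleotide supply and DNA synthesis. In Cd31+ cells with P16 shRNA, 20 of the 42 passed the unadjusted threshold as higher and 0 as lower, with a median log2 fold change of 0.32 against 0.00 for all genes, where 9.51% of all genes were called higher. Mcm2 and Mcm3, subunits of the replicative helicase, had log2 fold changes of 0.49 and 0.45, and Chaf1a of the chromatin assembly factor 0.55 (unadjusted p between 0.00431 and 0.00560 from edgeR). In Cd146+ cells, 11 were called higher and 0 lower, with a median of 0.69, where 5.44% of all genes were called higher. The count was 26 with the replicate block, 8 with the block over the 2 groups and 13 with the term for sex-linked transcripts. All genes called there, in both directions, numbered 1757 in the main fit, then 4362, 2499 and 1769 in that order. The smallest p there belonged to Rpa2, which binds single-stranded DNA (log2 fold change 1.01), the phosphatase gene Cdc25a (0.70) and the replication factor gene Gins1 (1.21), with unadjusted p between 0.00903 and 0.0177 from edgeR. After adjustment, 0 of the 42 passed in edgeR in either population (DESeq2, 3 in Cd31+ and 0 in Cd146+ cells), and 15 in Cd31+ and 3 in Cd146+ cells with the block (14 and 0 over the 2 groups). Over all genes, 2586 and 1326 passed adjusted with the block (2703 and 0 over the 2 groups). With all genes of at least 1 count, 4 of the 42 passed adjusted in Cd31+ cells, where 1294 of all genes did.

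With P16, part of the same list was called lower. In Cd146+ cells, 16 of 42 passed as lower and 0 as higher (median log2 fold change -0.64, against 1.99% of all genes called lower). Ezh2, a chromatin modifier, had a log2 fold change of -0.83, Rpa2 of -1.12 and Brca1, a repair gene, of -0.89 (unadjusted p between 0.0134 and 0.0221 from edgeR). The count was 2 with the replicate block and 9 with the term for sex-linked transcripts. All genes called there, in both directions, numbered 525 in the main fit, then 284 and 244 in that order. In Cd31+ cells, 3 of 42 were lower and 0 higher (median -0.27, against 2.29% of all genes called lower), with 18 lower with the block, 2 with the block over the 2 groups and 6 with that term. Usp1, Pola1 and Ezh2 were these 3 genes, with log2 fold changes of -0.38, -0.53 and -0.29. All genes called in Cd31+ cells, in both directions, numbered 544 in the main fit and 1766 with the block. They numbered 1163 with the block over the 2 groups and 813 with that term.

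The 25 G2/M genes are transcribed late in the cycle through the MuvB complexes, and their medians had the signs of the G1/S list in each of the 4 comparisons. With P16 shRNA, 2 were higher in Cd31+ cells (median 0.22), no larger a share than the 9.51% of all genes called higher. With the block, 9 were, where all genes called in both directions went from 2843 to 4795. In Cd146+ cells, 6 were higher (median 0.76), where 5.44% of all genes were, with 13 with the block, 4 with the block over the 2 groups and 4 with the term for sex-linked transcripts. None was lower in either population. Aurka, a mitotic kinase gene, was the list gene with the smallest p in both, at 0.48 and 1.17 on the log2 scale. With P16, 13 were lower in Cd31+ cells (median -0.37), where 2.29% of all genes were, with 14 with the block, 8 over the 2 groups and 14 with the term for sex-linked transcripts. In Cd146+ cells, 15 were lower (median -0.96), where 1.99% of all genes were, with 2 with the block and 10 with that term, and 0 were higher in either. The counts of all genes in the other fits are those given with the G1/S list. Mki67, the proliferation marker, had log2 fold changes of -0.74 and -1.26 with P16, and Cenpf, a centromere gene, of -0.79 and -1.05. After adjustment, 0 G2/M genes passed in edgeR or DESeq2 in the 4 comparisons. In silenced Cd31+ cells, 2 passed with the block, 3 with the block over the 2 groups and 1 with all genes of at least 1 count, and with P16 in Cd31+ cells, Cenpf passed with the block over the 2 groups (adjusted p = 0.0334 from edgeR).

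Single libraries moved these counts and those of all genes. Without 1 library at a time, all genes called in both directions numbered 1990 to 2893 in silenced Cd31+ and 815 to 2350 in silenced Cd146+ cells. With P16, they numbered 189 to 1037 in Cd31+ and 221 to 1292 in Cd146+ cells. Under the hairpin in Cd31+ cells, the 20 higher G1/S genes became 11 without nc shRNA 3 and 9 without P16 shRNA 3, and the 2 higher G2/M genes between 1 and 5. In Cd146+ cells, the 11 higher G1/S genes were 3 without nc shRNA 1, 4 without nc shRNA 3 and 2 without P16 shRNA 3. The 6 higher G2/M genes there became 2 without each of these 3 libraries, 3 without P16 shRNA 6 and 13 without nc shRNA 5. With P16 in Cd31+ cells, the 13 lower G2/M genes became 8 without empty vector 1 or P16 2 and 4 without empty vector 2, and the 3 lower G1/S genes between 0, without empty vector 2, and 14, without empty vector 5. With P16 in Cd146+ cells, the 16 lower G1/S genes became 6 without empty vector 2, 3 without empty vector 4, 10 without empty vector 5 and 9 without P16 1. The 15 lower G2/M genes there became 2 without empty vector 4 and 9 without empty vector 2 or P16 3. The list medians had the same sign in each of these fits.

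**Figure D4:**
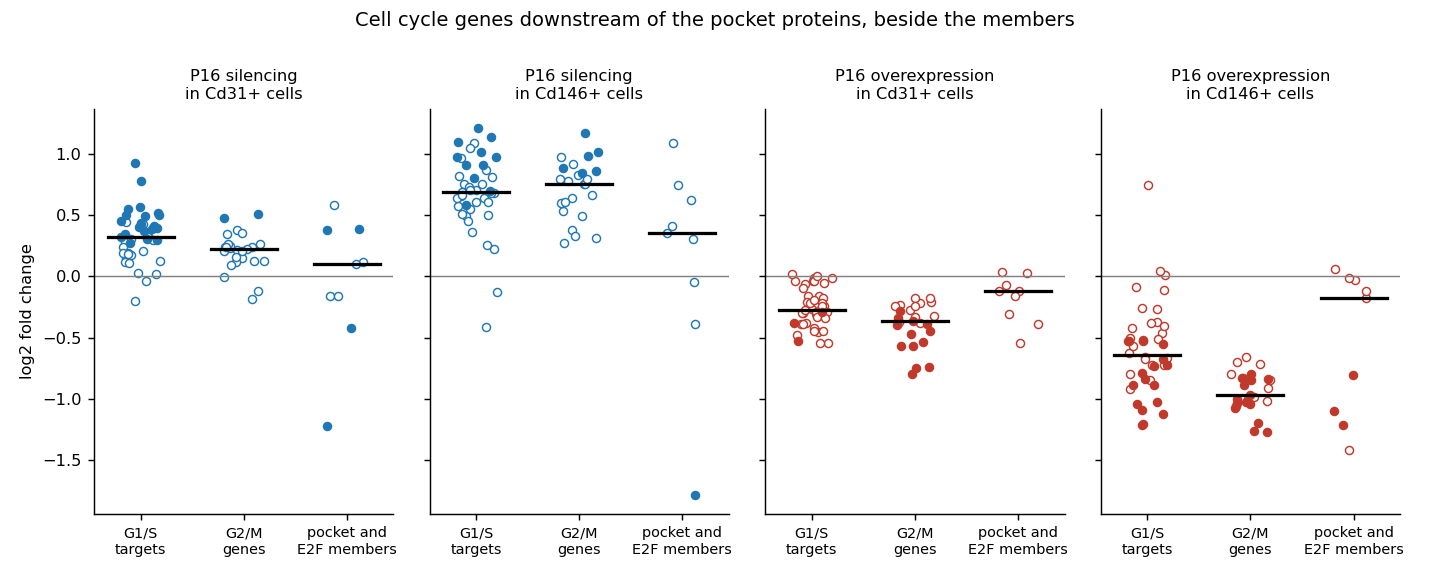
Log2 fold change (vertical axis) of each gene of the G1/S and G2/M lists in the 4 comparisons. Points are genes, filled where an unadjusted p was under 0.05 in edgeR, and the black line is the list's median. The medians lie between 0.22 and 0.76 under the hairpin and between -0.96 and -0.27 with P16.

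The partners of the members gave few calls. Of all genes, 19.8% and 11.6% were called under silencing and 3.73% and 3.53% with P16 (Cd31+ and Cd146+ cells). Calls in lists of 4 and 7 genes therefore do not set these apart from all genes. The medians of the 7 MuvB genes were 0.01 and 0.27 under silencing and -0.21 and -0.31 with P16, in that order. None of the 4 other genes of the E2F and DP family (E2f5, E2f6, Tfdp1 and Tfdp2) was called in any of the 4 comparisons. Of 7 genes of the MuvB complex with Mybl2 and Foxm1, 0 were called under silencing in either population or with P16 in Cd31+ cells, and Foxm1, a late activator, alone was lower with P16 in Cd146+ cells (log2 fold change -0.74, SE 0.25, unadjusted p = 0.0227 from edgeR). Upstream of the pocket proteins, 15 genes of cyclins, kinases and inhibitors were listed. With P16 shRNA, the unadjusted threshold was passed by 2 as higher and 3 as lower of 14 tested (Cd31+ cells; all genes 9.51% and 10.3%) and by 1 and 3 of 15 (Cd146+ cells; all genes 5.44% and 6.18%), counts that include Cdkn2a. Besides Cdkn2a, Ccnd1 and Ccnd2, the D-type cyclins that activate Cdk4 and Cdk6, were the lower genes in both populations, Ccnd1 by -1.44 in Cd31+ and -1.49 in Cd146+ cells on the log2 scale (unadjusted p = 0.00467 and 0.00667 from edgeR). Cdkn2d, an inhibitor of the same family as P16, was higher, by 0.47 and 0.78. With P16, 1 of 14 was higher and 1 lower in Cd31+ cells (all genes 1.45% and 2.29%), and 3 of 14 were higher and 0 lower in Cd146+ cells (all genes 1.55% and 1.99%). Besides Cdkn2a, Cdkn1b was lower in Cd31+ cells (-0.40), and Cdkn2b and Cdk6 were higher in Cd146+ cells (1.14 and 0.51).

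Marker genes of the cell types such cultures could hold were read beside these results, as median log2 fold changes of the markers tested and counts at the unadjusted threshold. In silenced Cd31+ cells, the medians were -0.37 for 10 endothelial markers (1 lower), 0.15 for 9 mesenchymal (1 higher), 0.18 for 8 macrophage and 0.14 for 4 cholangiocyte markers, and the 1 hepatocyte marker tested was called lower (-0.66). In silenced Cd146+ cells, they were 0.16 for 10 endothelial, 0.60 for 9 mesenchymal (1 higher), 0.73 for 8 macrophage and 1.20 for 4 cholangiocyte markers, with -0.85 for the hepatocyte marker. With P16 in Cd31+ cells, the medians were 0.50 (11 endothelial), 0.08 (9 mesenchymal), 0.20 (8 macrophage), -0.37 (4 cholangiocyte) and -0.05 (1 hepatocyte), with none called. With P16 in Cd146+ cells, they were -0.04, 0.20, 0.26, -0.62 (1 lower) and 0.54 in that order. No lymphoid marker passed the filter. Their part in the members' results was not tested.

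Across the 24 libraries, the members fell into those that varied together and those that did not. After the mean of each population had been taken out, the levels of Rbl1 and E2f7 had a Pearson r of 0.89 (n = 24 libraries), Rbl1 and E2f8 of 0.88, E2f7 and E2f8 of 0.85 and Rbl1 and E2f2 of 0.77. Rb1 and Rbl2 had 0.56. The lowest was -0.74, between Rbl2 and E2f4. E2f1 and E2f3 had no coefficient above 0.40 with any other member. These libraries share constructs and, in part, replicate numbers, so the coefficients describe the 24 libraries and are given without a test.

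**Figure D5:**
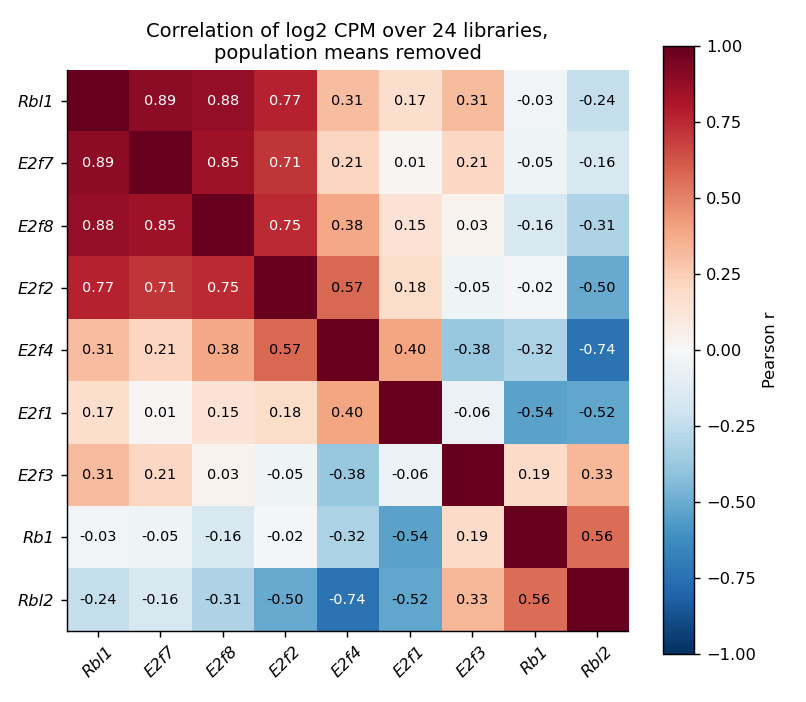
Pearson r of log2 CPM between each pair of members over 24 libraries, after the population means were taken out. Rbl1, E2f2, E2f7 and E2f8 form a block with r between 0.71 and 0.89, and Rbl2 and E2f4 have the lowest value, -0.74.

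The genes most like each member were looked up among 13620 protein-coding genes, by the same coefficient over the 24 libraries. E2f7 was followed most closely by Mki67 (0.951), Iqgap3 (0.943) and Cenpe (0.942), Rbl1 by Atad2 (0.938), Cenpf (0.924) and Aspm (0.923), and E2f8 by Prc1 (0.906), Uhrf1 (0.906) and Hmmr (0.905). Rbl2 was followed by Nisch (0.969), Sgpl1 (0.968) and Gsk3b (0.963). The first gene for Rb1 was Slco2a1 (0.896), for E2f2 Dhodh (0.888), for E2f3 Sos1 (0.860), for E2f4 Fuom (0.845) and for E2f1 Smarcd2 (0.838).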

How the data were processed

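RNA of the 24 libraries was sequenced from poly-A mRNA. The authors' deposited table gave the read count of each gene and its FPKM in every library, and the submitters' processing notes name fastp and the mouse build mm9. The gene coordinates listed in the table did not settle the build, so they are not printed; coordinates of promoters and of the 3′ UTR site are those of GRCm38. The aligner, the counting tool and its strand setting are not given in the sources used here. The deposited counts were taken as they are. FPKM values, divided by length and depth by the authors, served to compare levels between genes. They also served, without TMM scaling, for the sums and shares of the pocket and E2F genes by group. A further 20 deposited columns hold the authors' own comparisons (fold changes and p-values) and were not used. Groups were taken from the sample labels.

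Each comparison was fitted on the whole table with edgeR's quasi-likelihood test (edgeR 4.0.16, limma 3.58.1, R 4.3.3; filterByExpr, TMM, robust), two-sided, on the 6 libraries compared. Genes were called at an unadjusted p under 0.05 and, apart from that, at a p under 0.05 after the Benjamini-Hochberg adjustment across the genes tested. CPM values were scaled by TMM over all 24 libraries. The differences between populations used all 24 libraries and the population comparison the 12 with control constructs, with the construct as a term. Alternatives were other filters (all genes with at least 1 count, a mean of at least 10 counts), DESeq2 1.42.0 (size factors, Wald test), 12 libraries a fit, the replicate number as a block and each library left out, and, chosen after seeing the data, a term that separates libraries by Xist. That term groups the replicate numbers, so it and the block are not separate checks. The scripts were tested on simulated counts with 200 changed genes.

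Samples with the same replicate number deviated together: the correlation of their deviations from the group means had a median of 0.474 over 13 pairs in Cd31+ cells (lowest 0.321) and of 0.686 over 10 pairs in Cd146+ cells (lowest 0.379), against -0.156 and -0.0755 for pairs of different numbers. The numbers come from the sample labels. Blocked values, over the 12 libraries of a population or the 2 groups compared, stand beside the members whose call they change. No 2 libraries correlated above 0.9871, and none were counted as 1.

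Named genes are the 9 members, Cdkn2a, the 3 genes of each list with the smallest p in a comparison and the 3 genes most like each member; Ccnd2, the overlapping genes and the single markers were added after their values were seen. The members and the lists were chosen with earlier results of these data known.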

Additional observations from a re-analysis of the deposited data

How the results depend on the processing

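Of 954 values of the 9 members under the alternatives, 850 kept their direction and their side of the unadjusted threshold, 18 lost the call, 27 gained one and 59 changed sign. The cause of these changes was not tested. Rbl2 was lower under the hairpin, with an unadjusted p under 0.05, in both populations under each alternative run. With 3 libraries a group, and as few as 15 reads of E2f2 and 34 of E2f8 in a library, small differences of these members were not detectable.

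With the replicate number as a block, the members past the adjusted threshold in silenced Cd31+ cells went from 1 to 4, over 12 libraries or over the 2 groups. The members past the unadjusted threshold went from 0 to 1 (12 libraries) or 2 (2 groups) with P16 in Cd31+ cells, from 1 to 5 or 2 in silenced Cd146+ cells, and from 3 to 1 with P16 in Cd146+ cells (12 libraries). All genes past it, in the same order, went from 544 to 1766 or 1163, from 1757 to 4362 or 2499, and from 525 to 284. The member counts thus moved in the same direction as those of all genes. After adjustment, 1 member passed in silenced Cd146+ cells over 12 libraries both with and without the block, and 0 over the 2 groups both with and without it. Over all genes, the adjusted calls in silenced Cd31+ cells numbered 186 over the 2 groups, 2703 with the block, 373 over 12 libraries and 2586 with 12 libraries and the block. In silenced Cd146+ cells, these counts were 0, 0, 11 and 1326. Signs that changed with the block belonged to values that were not called: with P16 in Cd31+ cells E2f1 (-0.020 over 12 libraries, -0.012 over 2 groups) and E2f8 (0.026 over 2 groups), in silenced Cd146+ cells E2f3 (0.092 and 0.126), with P16 in Cd146+ cells Rb1 (0.012) and E2f3 (-0.081), in the difference of the silencing effects E2f4 (-0.11), and in that of the overexpression effects Rb1 (0.13), Rbl1 (0.17) and E2f2 (0.10).

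With all genes of at least 1 count, 1 member passed the unadjusted threshold with P16 in Cd31+ cells, 2 in silenced Cd146+ cells and 2 between the populations, and 1 passed the adjusted one in silenced Cd146+ cells. Of all genes, 1124 passed the unadjusted threshold with P16 in Cd31+ cells and 2371 in silenced Cd146+ cells, there 19 after adjustment. With 12 libraries a fit, 1 member passed with P16 in Cd31+ cells and 2 in silenced Cd146+ cells, there 1 after adjustment. All genes that passed in these fits numbered 954 and 2297, the latter with 11 after adjustment. DESeq2 also gave 1 after adjustment in silenced Cd146+ cells, and 1096 adjusted calls over all genes in silenced Cd31+ cells. Between the populations, 3 members passed with nc shRNA only and 0 with the empty vector only, and E2f2 (-0.26 with nc shRNA only), Rbl2 (0.0010) and E2f8 (0.049, both with the empty vector only) changed sign. The counts of all genes in both fits are not given here. With the term for Xist, 1 member and 244 of all genes passed with P16 in Cd146+ cells. The sign changed with it for E2f3 in silenced Cd146+ cells (0.037), Rb1 in the differences of the silencing (-0.092) and overexpression effects (0.095) and Rbl2 (0.065) and E2f2 (-0.29) between the populations.

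Without 1 library at a time, the members called unadjusted numbered 3 to 5 in silenced Cd31+ cells (0 to 1 adjusted), 0 with P16 in Cd31+ cells, 1 to 3 in silenced Cd146+ cells, 1 to 3 with P16 in Cd146+ cells, 0 to 1 in each difference of effects and 0 to 2 between the populations. All genes called unadjusted numbered, in the same order, 1990 to 2893, 189 to 1037, 815 to 2350 and 221 to 1292. They numbered 139 to 699 and 359 to 1276 in the differences of the silencing and overexpression effects and 1815 to 2964 between the populations. Log2 fold changes whose range crossed 0 were, in silenced Cd31+ cells, E2f8 (-0.061 to 0.28), and with P16 in Cd31+ cells Rb1 (-0.31 to 0.058), E2f1 (-0.036 to 0.13), E2f2 (-0.38 to 0.13), E2f3 (-0.14 to 0.021) and E2f4 (-0.023 to 0.096). In Cd146+ cells they were E2f3 under the hairpin (-0.19 to 0.037), and Rbl2 (-0.26 to 0.14), Rb1 (-0.37 to 0.10) and E2f1 (-0.061 to 0.062) with P16. For the difference of the silencing effects they were Rb1 (-0.15 to 0.19), E2f1 (-0.22 to 0.072), E2f3 (-0.031 to 0.24) and E2f4 (-0.074 to 0.20), for that of the overexpression effects Rb1 (-0.25 to 0.22), Rbl2 (-0.13 to 0.26) and E2f1 (-0.16 to 0.034), and between the populations Rbl2 (-0.058 to 0.026) and E2f2 (-0.34 to 0.35).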
